A study of Mus musculus with 6 samples.

Results

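Cytosolic ribosomal protein genes were examined in the kidneys of control mice and of other mice given adenine and potassium oxonate for 21 days. The genes were picked out by name, and the family was chosen with earlier results of these data known. They were the rows of the count table annotated as protein-coding in GENCODE release 21 whose symbol starts with Rpl or Rps and a digit, together with Rpsa, Rplp0, Rplp1 and Rplp2, without the Rps6k kinases. The rule found 92 genes of 55450, of which 57 carry a large-subunit symbol and 35 a small-subunit symbol. Of the 92 genes, 77 encode core proteins of the ribosome, 7 are paralogs of a core gene, 7 are retrocopies annotated as coding, and Rps19bp1 encodes a protein that binds Rps19 and is not part of the ribosome. The check of the name against the genes therefore held for the 77 core genes, which are given separately where it matters.

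Kidney tissue of male C57BL/6J wild type mice was sequenced, from 3 mice on day 0 and 3 on day 21. Each kidney had been divided, and the part used for RNA is not named. Both groups had the same genetic background without any transgene. The mice were 7 weeks old at purchase and were housed for 1 week before the experiment. The controls are labelled as given 20% PEG. Their labels name no day, and the day-0 group is called the control in the text on the design. By daily gavage, the day-21 group received 0.16 g/kg of adenine, a purine, and 2.4 g/kg of potassium oxonate. Oxonate inhibits the enzyme that breaks down uric acid. In the stated design each group was killed on its own day, so the day-21 mice were also older. Age, the PEG label and the treatment go together here and cannot be told apart. Each library came from 1 mouse and held between 10963849 and 14333311 counts. The p-values below measure the spread between these mice.

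The cytosolic ribosome is built from ribosomal RNA and one copy of nearly every ribosomal protein, so cells make the proteins of both subunits in matched amounts. The mRNAs of these proteins start with a 5′ terminal oligopyrimidine tract, a C followed by an unbroken run of pyrimidines, and mTOR controls their translation together through this tract. In most tissues these mRNAs are among the most abundant, and growth and proliferation raise ribosome production.

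The starts of a few genes are shown here because the tract is the shared feature of the family. Each sequence runs 5′ to 3′ over 30 bases, 15 before and 15 from the start site that RefSeq annotates on GRCm38.p6, and capitals mark the run of pyrimidines that begins at the start. Rps6, Rps18, Rpl38 and Rps27 carried the run, as only 13 of the 57 core genes with a matched start site did.
Rps6: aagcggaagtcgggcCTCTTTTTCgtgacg
Rps18: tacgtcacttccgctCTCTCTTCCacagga
Rpl38: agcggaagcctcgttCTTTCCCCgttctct
Rps27: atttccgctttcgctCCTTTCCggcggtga
The paralogs of 4 core genes had no such run beginning at the annotated start, so nothing is capitalised in them. Most core genes lacked it there too, and of the paralogs' own core genes only Rps27 is shown. Pyrimidine runs that begin elsewhere in a window, as in Rps27l and Rpl22l1, are not marked. The first of the annotated start sites is shown for Rps27l and Rpl3l.
Rps27l: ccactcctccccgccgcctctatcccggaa
Rpl22l1: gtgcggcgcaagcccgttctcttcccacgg
Rpl3l: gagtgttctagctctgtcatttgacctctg
Rpl7l1: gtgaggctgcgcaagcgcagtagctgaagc
In the order printed, these windows lie at chr4:86857353-86857382 on the minus strand, chr17:33955651-33955680 on the minus strand, chr11:114668565-114668594 on the plus strand, chr3:90213634-90213663 on the minus strand, chr9:66946071-66946100 on the plus strand, chr3:28805493-28805522 on the plus strand, chr17:24727811-24727840 on the plus strand and chr17:46782642-46782671 on the minus strand.

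RefSeq start sites were matched to 66 of the 92 genes and to 57 of the 77 core genes. A C followed by at least 4 pyrimidines stood exactly at the start in 13 of the 57 core genes (22.8%), against 3.01% of the 27025 genes with a window. Within 10 bases of the start on the same strand it was found in 59.6% of core genes and in 34.4% of all genes. TATAAA was not found in the 50 bases before the start of any of the 57 core genes and was found in 3.15% of all genes. Over the whole window, from 250 bases before to 50 after the start and on both strands, CCGGAAG, the core of sites bound by ETS factors, was found in 42.1% of core genes against 9.93% of all genes. The corresponding shares were 61.4% and 38.2% for GGGCGG, 15.8% and 7.28% for AAGATGG, and 10.5% and 8.09% for CACGTG. These matches describe letters in a window and not sites in use. The median log2 fold change between the days was 0.51 over the 34 core genes with the tract within 10 bases of the start and 0.45 over the 22 tested ones without it.

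As a family, ribosomal protein mRNAs were more abundant in the day-21 kidneys, by a moderate and similar amount in both subunits. Summed over the 92 genes, the level was 19039, 19029 and 14625 CPM in controls against 22397, 25604 and 25149 CPM at day 21, where CPM is a count scaled to a common library total, with library sizes adjusted by TMM. All day-21 mice lay above all day-0 mice, and the third day-0 mouse lay below the other two of its group. The means were 17565 ± 2545 and 24384 ± 1735 CPM (SD, n = 3 each), and the ratio of the groups was 1.40-fold, 1.38-fold for the large subunit and 1.41-fold for the small. The two-sided exact permutation test gave p = 0.1 for each sum, the smallest value that 3 mice against 3 can give. In bulk tissue, fewer or more cells of a type and less or more RNA per cell cannot be told apart.

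**Figure D1:**
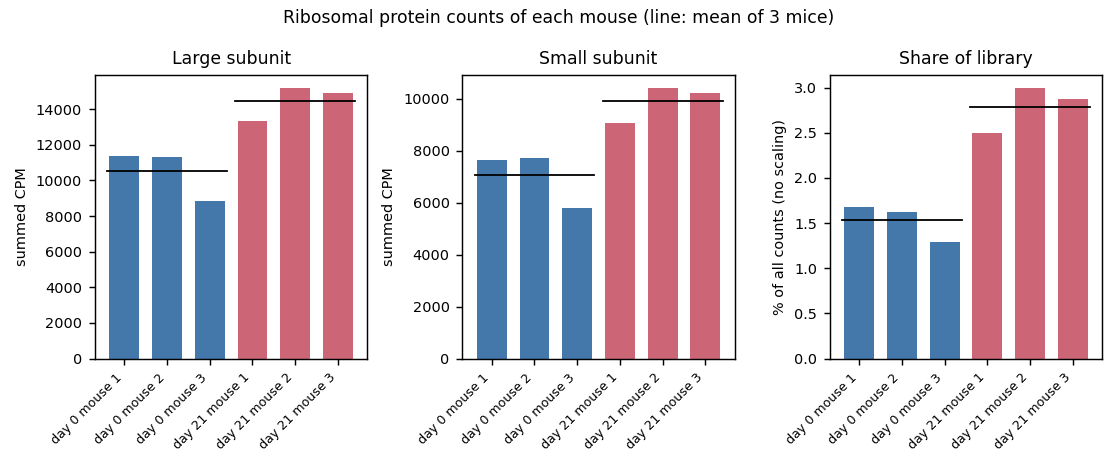
Counts of the ribosomal protein genes in each of the 6 mice, as summed CPM for the large and the small subunit and as percent of all counts of the library without any scaling. Each bar is 1 mouse and each line the mean of 3 mice, and in all 3 panels the day-21 mice stand above the day-0 mice.

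The 2 subunits were also compared within each library. The summed small-subunit counts were 0.673, 0.682 and 0.656 times the summed large-subunit counts in controls against 0.681, 0.686 and 0.684 times at day 21. The groups overlapped, and the log2 ratio differed by 0.03 between the days (two-sided exact permutation p = 0.2). This ratio is taken within a library, so it does not depend on how libraries are scaled. Without the 5 genes with the most counts the difference was 0.077 (exact p = 0.1).

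Gene by gene, most of the members that rose did so by less than 1.5-fold. Of the 92 genes, 84 passed the filter on low counts and were tested in edgeR by quasi-likelihood, with Benjamini-Hochberg adjustment over 16592 genes. With both an adjusted p under 0.05 and a change of over 1.5-fold required, 21 of the 84 were higher on day 21 (25.0%), close to the 19.6% of all genes tested that were called higher. At the same limits 1 gene was lower, Rpl3l, where 15.5% of all genes tested were lower. At an adjusted p under 0.05 and any fold, 60 of the 84 were higher (71.4%), against 23.9% of all genes, and 1 was lower, against 21.7%. The fitted change was positive in 80 of the 84. Errors given after a log2 fold change are standard errors of this fit. The median log2 fold change of the 84 was 0.48, with quartiles of 0.35 and 0.58, beside 0.03 for all genes tested. The day-21 mice all lay above the day-0 mice in 66 of the 84 genes, or 78.6%, where 30.7% of all genes did so.

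The core genes alone varied little among themselves. Of the 77 core genes, 76 were tested, 19 were called higher, none was called lower, and 58 were higher at the adjusted p and any fold. The shares of all genes tested were 19.6, 15.5 and 23.9%. Their log2 fold changes ran from −0.19 for Rps10, whose row held few counts, to 1.22 for Rps27a around a median of 0.50. The SD of the log2 fold change was 0.20 over these 76 genes and 1.16 over all genes tested, while the median standard error of a core gene was 0.14. The large-subunit core genes called higher were Rpl3, Rpl7, Rpl10a, Rpl12, Rpl13a, Rpl23, Rpl36a, Rpl37, Rpl39 and Rplp1, 10 of 45. In the small subunit they were Rps4x, Rps7, Rps9, Rps12, Rps16, Rps19, Rps20, Rps24 and Rps27a, 9 of 31. The paralog Rpl22l1 and the retrocopy Rps12-ps3 made up the rest of the 21. Rpl10a, Rpl37, Rps7, Rps9, Rps16 and Rps24 are named here only because they were called.

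**Figure D2:**
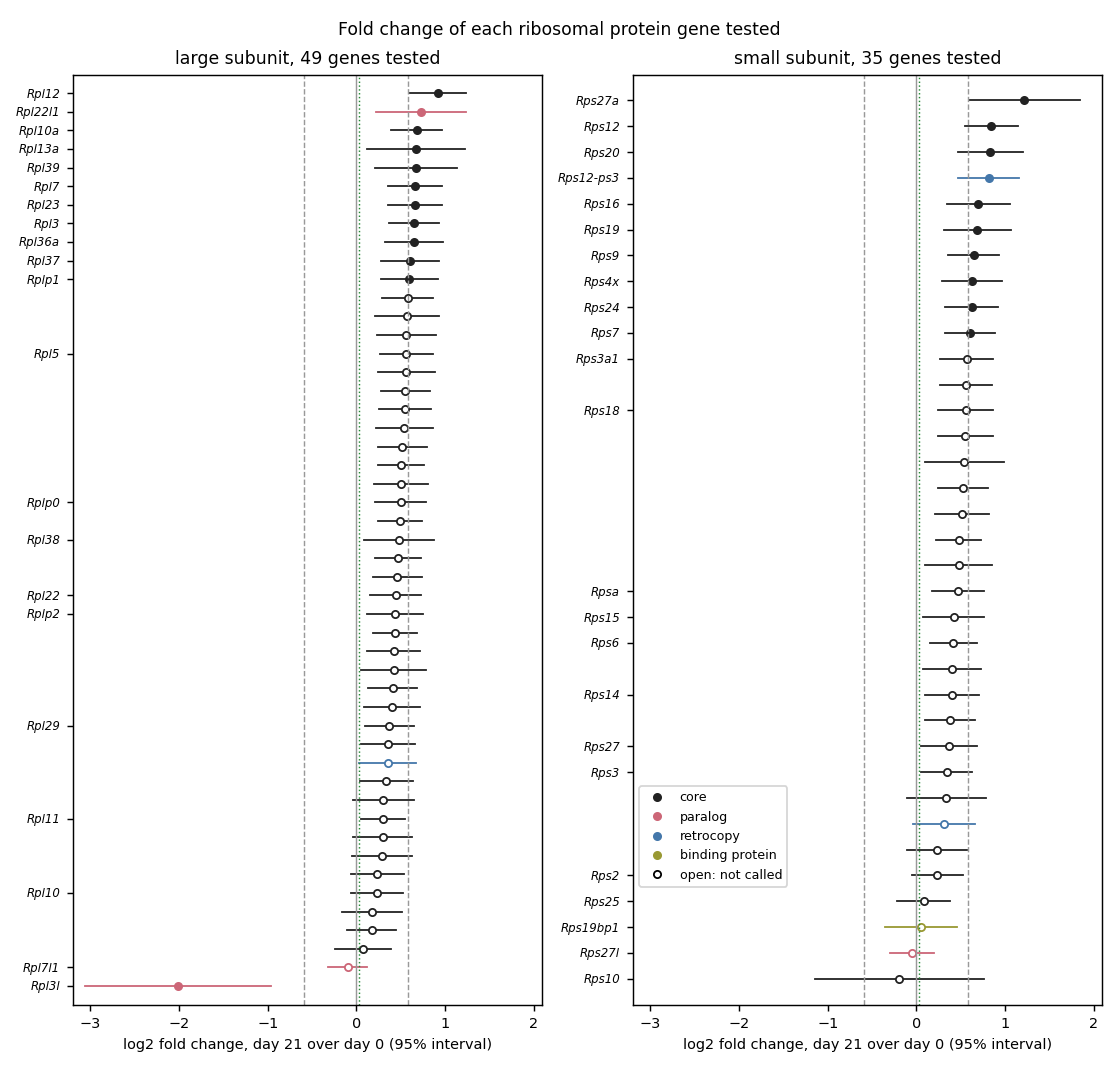
Log2 fold change of day 21 over day 0 for the 49 large-subunit and 35 small-subunit genes tested, with 95% intervals, from edgeR's quasi-likelihood fit. Filled points passed both the adjusted p and the 1.5-fold limit, dashed lines mark that fold in either direction and the dotted line the median of all genes tested. Names are printed for the genes called and for some others. The core genes form a narrow band to the right of 0, and Rpl3l stands alone far to the left.

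The mice of a group differed along the whole family. In all 76 core genes tested, the third mouse was the lowest of the day-0 group and the first mouse the lowest of the day-21 group. The median log2 deviation from the day-0 mean was 0.13, 0.13 and −0.25 in controls against 0.36, 0.61 and 0.55 at day 21. The third day-0 mouse therefore widened the difference between the groups and also the spread within one of them. Without this mouse, 5 of 86 members tested were called higher, below the 18.9% of all genes. Of the 86, 42 were higher at an adjusted p under 0.05 and any fold, against 21.8% of all genes. The 5 were Rps27a, Rpl12, Rps12, Rps20 and Rps12-ps3, all among the 21 called with every mouse. The median log2 fold change was then 0.37. Without the second day-0 mouse, 36 of 85 members tested were called higher, against 17.7% of all genes. Without the first day-21 mouse it was 34 of 84, against 17.9%.

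**Figure D3:**
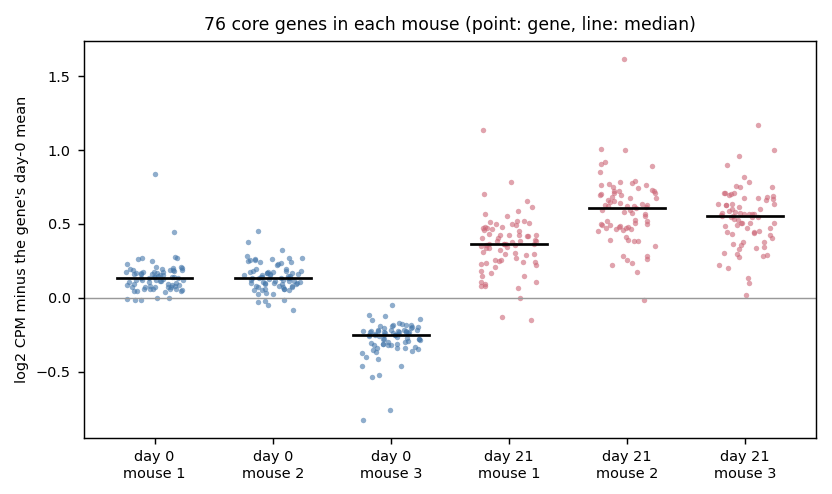
Level of each of the 76 core genes tested in each mouse, as log2 CPM minus the mean of the gene over the day-0 mice. Points are genes and lines are medians, which lie at 0.13, 0.13 and −0.25 in controls against 0.36, 0.61 and 0.55 in the day-21 mice.

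How large the family's rise is depends on how libraries are made comparable. The share of the library taken by the 92 genes, with no scaling, was 1.68, 1.62 and 1.29% in controls against 2.50, 2.99 and 2.87% at day 21. The groups were apart, with a ratio of 1.83-fold (exact p = 0.1). Mitochondrially encoded genes took 9.41, 9.39 and 9.86% of the control libraries against 4.42, 4.35 and 3.82% of the day-21 libraries. Scaling by library size alone moved the median of all genes to 0.42 and the median of the members to 0.88. Under it 75 of 84 members were called higher, against 36.1% of all genes. Upper-quartile scaling moved the median of all genes to 0.12 and that of the members to 0.57, with 40 of 84 called higher against 22.3%. RLE scaling gave 17 of 84, near the 18.7% of all genes. Library size alone, taken without mitochondrially encoded genes, gave 71 of 84 against 31.4%. A scaling moves all genes nearly alike, so it leaves the distance between the members' median and that of all genes where it was, at 0.45. Leaving out a mouse can change that distance, which was 0.34 without the third day-0 mouse and 0.53 without the second.

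**Figure D4:**
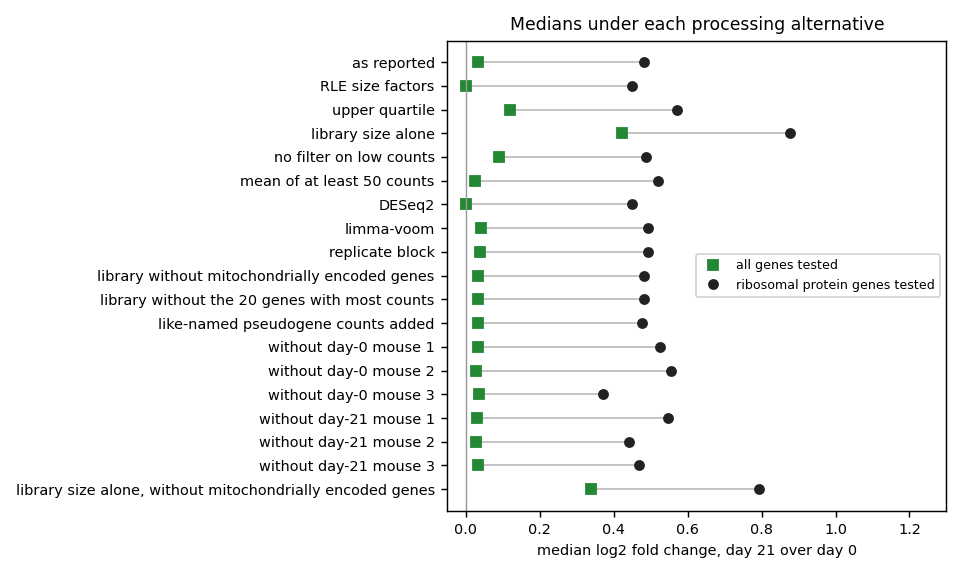
Median log2 fold change of the ribosomal protein genes tested (circles) and of all genes tested (squares) under each processing alternative, with the value as reported at the top. Library size alone shifts both medians together, to 0.88 and 0.42, and leaving out the third day-0 mouse brings the circles to 0.37 with the squares near 0.

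The large-subunit stalk, which recruits translation factors to the ribosome, is built from Rplp0, Rplp1 and Rplp2, and the mRNAs of all 3 rose about as much as the family did. Scaled on the summed members, their log2 fold changes were 0.03, 0.13 and −0.03, and none passed. Rplp1 had the highest level of all members per kilobase of exon on day 0, at 721 CPM per kilobase. It stood at 399, 395 and 285 CPM in controls against 497, 569 and 569 CPM at day 21. Every day-21 mouse was above every day-0 mouse, and the log2 fold change was 0.60 ± 0.15 (SE, adjusted p = 0.0069 in edgeR, Benjamini-Hochberg). Its call at 1.5-fold was lost under 6 of 19 alternatives, among them without the third day-0 mouse and without the second or the third day-21 mouse. Rplp0, the anchor of the stalk and a common reference gene in qPCR, came next per kilobase. Its values were 1018, 959 and 779.5 CPM in controls against 1267, 1269.7 and 1359.6 CPM at day 21. The groups did not overlap, and Rplp0 passed the adjusted p below the 1.5-fold limit (log2 0.50 ± 0.13). Rplp2, the partner of Rplp1, changed by 0.44 ± 0.14 and also passed at any fold.

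Rpl12, which sits at the base of the stalk, had the largest rise of the large subunit. Rpl12 lies at chr2:32961559-32965345 on the plus strand. Its level was 209.9, 194 and 148 CPM in controls against 313, 364 and 364 CPM at day 21. The groups were well apart, with a log2 fold change of 0.92 ± 0.14 (edgeR adjusted p = 0.00052).

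Rpl5, Rpl11 and Rpl23 can bind Mdm2, the ligase that keeps p53 low, when ribosome assembly is disturbed. Rpl23 was called higher, from 216, 199.8 and 162 CPM to 267, 326 and 323 CPM, without overlap between the days (log2 0.66 ± 0.14). Rpl5 passed the adjusted p just below the fold limit (log2 0.57 ± 0.14), and Rpl11 passed narrowly at 0.30 ± 0.11 (edgeR adjusted p = 0.0495). Rpl11 missed the adjusted p under RLE scaling, in DESeq2, with a replicate block and with each mouse left out. It still passed in limma-voom and under upper-quartile scaling. Mdm2 itself, named outside the rule for naming genes, was not called (log2 0.06 ± 0.12).

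Rpl38 and Rpl29 are known for roles of their own. Rpl38, needed for the translation of some Hox mRNAs, changed by 0.49 ± 0.18, and Rpl29, which also binds heparin at the cell surface, by 0.37 ± 0.12. Both passed the adjusted p at any fold. Rpl3, at the centre that forms peptide bonds, and Rpl39, a small protein lining the exit tunnel, have paralogs and were both called higher (log2 0.65 ± 0.13 and 0.67 ± 0.21). The call of Rpl39 was also lost without the second day-21 mouse. Rpl10, which completes the maturing large subunit, missed the adjusted p (log2 0.23 ± 0.13).

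In the small subunit, Rps27a stood out. It encodes ubiquitin fused to a ribosomal protein, so its mRNA also supplies ubiquitin, and it lies at chr11:29545846-29548109 on the minus strand. The level was 97.5, 92.8 and 40.3 CPM in controls against 157, 219.5 and 161 CPM at day 21. The third day-0 mouse was far below the other two, and the second day-21 mouse was the highest, yet the groups did not overlap. The rise was 2.33-fold (log2 1.22 ± 0.28, edgeR adjusted p = 0.0053), the largest of all members. Rps27a kept its call under each of the 19 alternatives, with log2 values between 0.78 and 1.62.

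Rps12 and Rps20, proteins of the small subunit's head, followed. Rps12 rose from 151, 139 and 112 CPM to 217, 247 and 259 CPM (log2 0.85 ± 0.13). Rps20 rose from 135, 151 and 97.2 CPM to 198, 253 and 234 CPM (log2 0.84 ± 0.17). In both genes each day-21 mouse was above each day-0 mouse. Rps19, the gene most often mutated in Diamond-Blackfan anaemia, was called higher (log2 0.69 ± 0.17). Rps14, which is lost in a myelodysplastic syndrome with a deletion of 5q, passed only at any fold (log2 0.40 ± 0.14).

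Rps6, the protein phosphorylated by S6 kinase downstream of mTOR, had 421, 396 and 334 CPM in controls against 483, 524 and 531 CPM at day 21. The groups did not overlap, and Rps6 passed at any fold (log2 0.42 ± 0.12, edgeR adjusted p = 0.016). Rpsa, also known as the laminin receptor precursor, changed by 0.47 ± 0.13 and Rps18 by 0.56 ± 0.14, and both passed at any fold. Rps3, at the entry of the mRNA channel, missed the adjusted p (log2 0.34 ± 0.13, edgeR adjusted p = 0.056). The 5 members with the highest level per kilobase on day 0 were Rplp1, Rplp0, Rps15, Rps2 and Rps3a1. Of the small-subunit genes among them, Rps15 and Rps3a1 passed at any fold (log2 0.42 ± 0.16 and 0.57 ± 0.13) and Rps2 did not pass (0.23 ± 0.13).

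Rps25, a protein needed for initiation at some internal ribosome entry sites, had 250.4, 237 and 183 CPM in controls against 222, 250.4 and 238 CPM at day 21. The groups overlapped almost fully, with a log2 fold change of 0.08 ± 0.13 and a 95% interval from −0.21 to 0.38.

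To see which genes moved away from the family, the fit was repeated with libraries scaled on the summed counts of the members, a choice made after seeing the data. Under it 10.9% of all genes were higher and 41.1% lower at an adjusted p under 0.05 and any fold. Of the 84 members, 2 were higher than the family, Rps27a (log2 0.78 ± 0.23) and Rpl12 (0.45 ± 0.15). Lower than the family were 5, namely the paralogs Rpl3l (−2.49 ± 0.48), Rpl7l1 (−0.58 ± 0.17) and Rps27l (−0.52 ± 0.17) and the core genes Rpl35a (−0.40 ± 0.16) and Rps25 (−0.39 ± 0.15). The remaining 77 did not pass. Rps19bp1, which binds Rps19, missed the adjusted p in both fits (log2 0.05 ± 0.18 and −0.43 ± 0.20). Rpl35a, a large-subunit protein, was named after its values were seen.

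Paralogs were compared with the core genes they resemble. Rpl3l takes the place of Rpl3 in heart and skeletal muscle and lies at chr17:24727820-24736143 on the plus strand. It had 39, 32 and 24 counts in controls against 6, 8 and 21 counts at day 21. The third day-21 mouse came near the lowest day-0 mouse in counts, and in CPM the groups did not overlap. Rpl3l was called lower (log2 −2.02 ± 0.47, edgeR adjusted p = 0.0058), the only member to fall at the limits used. Per exon length it made up 1.70, 1.14 and 1.40% of Rpl3 in controls against 0.142, 0.145 and 0.381% at day 21. Of 6 muscle markers, Myh2 and Myh4 were at 0 in all mice, and Acta1, at 1, 1 and 0 counts in controls against 20, 43 and 31 at day 21, was called higher. The other 3 were not tested. Ckm had 0, 1 and 1 counts in controls and Actc1 0, 3 and 1, both without a count at day 21, and Myh6 had 4, 8 and 1 counts against 9, 4 and 0. Whether muscle tissue bears on the counts of Rpl3l was not tested.

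The paralog of Rpl7, a large-subunit protein, overlapped between the days while Rpl7 rose. Rpl7l1 had 92.2, 91.9 and 86.2 CPM in controls against 87.4, 81.2 and 84.3 CPM at day 21, and its log2 fold change missed the adjusted p (−0.10 ± 0.10). Rpl7 was called higher (log2 0.66 ± 0.14). The paralog's level per exon length was 17.2, 20.6 and 22.4% of the core gene on day 0 and 13.1, 10.6 and 11.7% on day 21, with the groups apart.

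Rps27l, a target of p53, was about as abundant per exon length as Rps27 and had a log2 fold change of −0.05 ± 0.11, which missed the adjusted p. Relative to Rps27 it stood at 127, 140.4 and 152% in controls against 120.4, 90.4 and 105% at day 21, again without overlap. Rps27 itself had a log2 fold change of 0.37 ± 0.14 and missed the adjusted p (0.055 by edgeR's quasi-likelihood test).

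Rpl22l1, whose expression Rpl22 represses in some cells, was called higher (log2 0.73 ± 0.23, edgeR adjusted p = 0.025), from 10.3, 12.9 and 7.11 CPM to 13.9, 20.0 and 16.5 CPM, beside 0.44 ± 0.13 for Rpl22. The call was lost without the first or the third day-0 mouse and without the second or the third day-21 mouse. As a share of Rpl22 per exon length it was 13.4, 17.8 and 11.6% in controls against 16.7, 19.2 and 16.6% at day 21, with overlapping groups.

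Over the 5 pairs tested by a two-sided exact permutation test on the log2 ratio within each library, the difference of day 21 from day 0 was −2.81 for Rpl3l/Rpl3, −0.77 for Rpl7l1/Rpl7 and −0.41 for Rps27l/Rps27, each with p = 0.1 and 0.17 after Benjamini-Hochberg adjustment over the 5 pairs. Rpl22l1/Rpl22 differed by 0.31 (exact p = 0.3). Rpl36al/Rpl36a rested on at most 5 counts of Rpl36al in a mouse and gave no measure. The paralogs Rpl10l and Rpl39l had no count in any mouse.

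**Figure D5:**
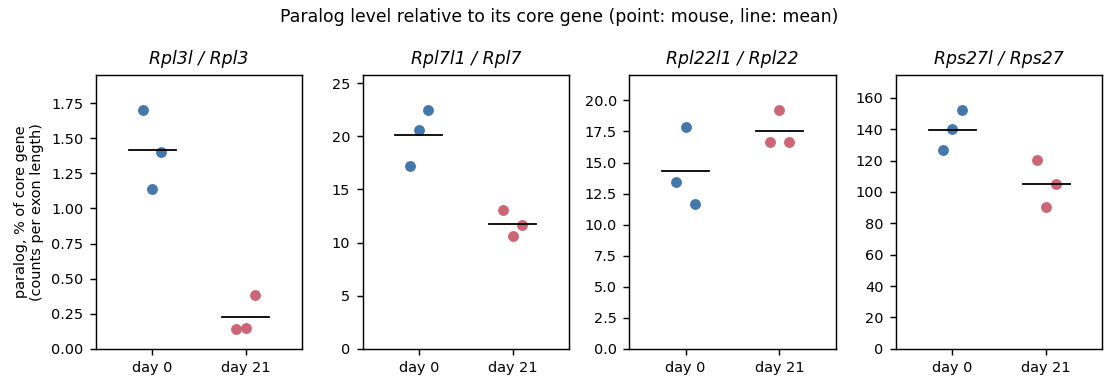
Level of a paralog as percent of its core gene, both per exon length, in each of the 3 day-0 and 3 day-21 mice, with lines at the means. The groups are apart for Rpl3l, Rpl7l1 and Rps27l, all lower on day 21, and overlap for Rpl22l1.

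Sequence shared with other genes limits what a single row can say. A median of 33.8% of the 50-base words of a member's longest transcript also occurred in another gene, and 19 of the 92 members shared under 10%. Of these 19, 15 were tested, with a median log2 fold change of 0.40. Of the 15, 3 were called higher and 1 lower, beside 19.6 and 15.5% of all genes tested. Rps12-ps3 shared all of its words with another gene, so its rise from 35.2, 30.7 and 24.3 CPM to 51.6, 47.4 and 60.1 CPM (log2 0.82 ± 0.15) cannot be told apart from that of Rps12. The retrocopies Rpl9-ps6 and Rps27rt had log2 fold changes of 0.36 ± 0.14 and 0.31 ± 0.16 and did not pass.

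Outside the 92 genes, 292 pseudogenes carry the symbol of a member. Of these, 158 had no count in any mouse and 39 were tested, of which 4 were called higher and none lower, where 19.6% of all genes tested were higher and 15.5% lower. Their median log2 fold change was 0.45. Together they held 2.28, 2.32 and 2.25% as many CPM as the members in controls against 2.16, 2.21 and 2.13% at day 21. Adding their counts to the gene of the same name gave 22 members called higher in place of 21.

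The rows of a few core genes were nearly empty. Rpl24, a large-subunit protein that bridges the subunits, held 3, 1 and 0 counts in controls against 3, 1 and 0 at day 21, and was not tested. Rps10, a protein of the small subunit's head, had 28, 18 and 9 counts in controls against 20, 26 and 26 at day 21 (log2 −0.19 ± 0.43). The 4 pseudogenes with its symbol held 6675 counts over all mice, and 56.8% of its words occurred in another gene. Whether reads of Rps10 were counted there was not tested. Its log2 fold change ran from −0.64 to 0.37 over 18 alternatives, so its row gives no firm direction. Rpl13a, which can also silence translation of inflammatory mRNAs, had 35, 43 and 30 counts in controls against 64, 106 and 88 at day 21. It was called higher (log2 0.68 ± 0.25, edgeR adjusted p = 0.047), and the call was lost under 12 of 19 alternatives. The other 74 core genes had at least 290 counts in every mouse.

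These rows shared a feature of the annotation, which was looked up after their counts were seen. In Rpl24, Rps10, Rpl13a and the paralog Rpl36al, 47.0, 20.6, 29.4 and 24.5% of exon bases lie in exons of a longer gene on the same strand. The longer genes are Gm28037, RPS10-NUDT3, Gm45713 and Gm49383. No other member passed 20%, and in the 74 other core genes the overlap was at most 3.52%. Gm28037, RPS10-NUDT3 and Gm45713 had no count in any mouse, while Gm49383 had 222, 297 and 212 counts in controls against 219, 241 and 289 at day 21. Whether the overlap bears on these low counts was not tested.

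The fold change varied little with simple properties of the genes. Over the 76 core genes tested, which share the same 6 libraries, Spearman's rho between the log2 fold change and the log2 level on day 0 was −0.12, with total exon bases 0.12 and with the share of words in other genes −0.07.

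Genes that work with ribosomal proteins were read from lists of related genes, whose counts stand beside 19.6% of all genes tested called higher and 15.5% called lower. Rack1, a scaffold on the small subunit whose symbol is outside the naming rule, passed at any fold (log2 0.51 ± 0.13). Among 16 other mRNAs of the translation machinery known for a 5′ terminal oligopyrimidine tract, 4 were called higher, near the share of all genes, and none lower, with a median of 0.27. Hnrnpa1, an RNA-binding protein, rose most, from 109.8, 89.3 and 88.7 CPM to 230.4, 213 and 227 CPM without overlap (log2 1.22 ± 0.12). The elongation factors Eef1a1 and Eef2, the most abundant of this list, had log2 fold changes of 0.24 ± 0.14 and −0.10 ± 0.12 and did not pass. The others called were Npm1, Pabpc1 and Eif3f, named after their values were seen.

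Some long noncoding RNAs carry small nucleolar RNAs in their introns, and several are known to start with the same tract. Of 8 such host RNAs tested, 5 were called higher and none lower, with a median of 1.05. Gas5 stood at 20.4, 16.4 and 18.4 CPM in controls against 33.8, 43.3 and 38.6 CPM at day 21 (log2 1.07 ± 0.14). Zfas1 rose by 1.59 ± 0.20 and Snhg5 by 1.64 ± 0.28, while Snhg3 did not pass (0.19 ± 0.42). The others called were Snhg1 and Snhg6, named after their values were seen.

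Ribosome biogenesis factors process ribosomal RNA and assemble the subunits in the nucleolus. Of 40 such genes, 3 were called higher and 1 lower, both below the shares of 19.6 and 15.5% for all genes, with a median of 0.06. At any fold 5 were higher and 4 lower, against 23.9 and 21.7% of all genes. Nop58, a protein of box C/D small nucleolar particles, rose (log2 0.82 ± 0.15), as did nucleolin, encoded by Ncl (0.67 ± 0.14), and Eif6 (0.70 ± 0.17), named after its values were seen. Tsr1, needed for maturation of the small subunit, fell from 121, 107 and 123 CPM to 77.8, 58.8 and 69.0 CPM (log2 −0.77 ± 0.13). Ubtf, which activates transcription of ribosomal RNA genes, had a log2 fold change of −0.03 ± 0.12.

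A list of 30 initiation factors left out those counted above among mRNAs with the tract, such as Eif3f, which was called higher. Of the 30, none was called higher and 3 were called lower, below the 15.5% of all genes, with a median of −0.01. The 3 were Eif4g1, Eif4g2 and Eif4g3, scaffolds of the cap-binding complex and its relatives. Eif4g3 fell by 0.83 on the log2 scale, from 217, 220.0 and 241 CPM to 127, 125 and 129.6 CPM, with the groups far apart. Eif4g2 fell by 0.64 and Eif4g1 by 0.60.

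Of 17 regulators of ribosomal protein synthesis tested, 4 were called higher, near the 19.6% of all genes, and 1 lower, below the 15.5%. Their median was −0.10. At any fold 4 were higher and 6 lower, against 23.9 and 21.7% of all genes. Myc, which activates transcription of ribosome genes, rose from 21.6, 14.6 and 13.1 CPM to 47.8, 41.7 and 45.6 CPM (log2 1.46 ± 0.18). Mtor, the kinase that controls translation of these mRNAs, fell from 248, 286 and 271 CPM to 106, 75.9 and 95.3 CPM (log2 −1.54 ± 0.14). In both genes the groups did not overlap. Larp1, which binds the tract and represses its translation, passed only at any fold (log2 −0.47 ± 0.11). Eif4ebp2, a repressor of cap-dependent initiation, likewise passed at any fold (−0.58 ± 0.10). Larp1 and the others called higher, Rps6ka1, Eif4ebp1 and Mycn, were named after their values were seen.

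Markers of several kidney cell types differed between the groups, and those of the proximal tubule had the highest summed level in controls. All 8 proximal tubule markers were called lower, and their summed level was 17373 to 19166 CPM in controls against 3735 to 4805 CPM at day 21. Of the markers of the thick ascending limb and distal tubule 4 of 5 were lower, of the collecting duct 4 of 4, and of podocytes 3 of 5. Among them Pvalb, of the distal tubule, was nearly absent at day 21, with 0, 0 and 1 counts. Of 12 leukocyte markers, 10 were tested and all 10 were higher, with sums of 137 to 166 CPM and 603 to 790.2 CPM, and Ms4a1 was at 3 counts or fewer in each day-0 mouse. Markers of fibroblasts and myofibroblasts were higher in 6 of 6, with sums of 239 to 331 CPM and 1154 to 2137 CPM, and markers of cycling cells in 6 of 6, with 53.0 to 59.3 CPM and 178 to 227 CPM. The part of these cells in the rise of ribosomal protein mRNAs was not tested.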

How the data were processed

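RNA of each mouse's kidney was extracted, and its mRNA was read as paired ends of size-selected cDNA fragments. The authors deposited raw counts per gene, not normalized, with mice kept separate. TopHat and mm10 are named in the submitters' processing notes, while the counting program and its strand setting are not given in the sources used here. No deposited columns of values were left unmapped. The 92 members and the related lists were chosen with earlier results of these data known.

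Genes were filtered by filterByExpr (minimum count 10, minimum total 15), scaled by TMM and compared in edgeR 4.0.16 (R 4.3.3) by quasi-likelihood, with no replicate block, with Benjamini-Hochberg adjustment. Limits were an adjusted p of 0.05 and a fold of 1.5. Sums and ratios were compared by two-sided exact permutation in Python 3.11.15, with 0.5 counts added to each gene of a pair. DESeq2 1.42.0, limma 3.58.1 (voom), other scalings, filters and thresholds, a replicate block and each mouse left out were alternatives. Exons, overlaps and transcripts came from GENCODE mouse release 21, whose gene positions are on GRCm38, and start sites from RefSeq. The fits were tested on simulated data. Some genes are not reported here. Genes named were the paralog pairs, the 5 highest and 5 lowest fold changes (of the latter 4 were negative), members with a role of their own, the 5 highest per exon length on day 0, and up to 4 genes of each list. Other genes, such as all those called, were named after their values were seen. No 2 libraries of a group were duplicates (chi-square per gene of 6.78 to 23.6). Counts give counting error only for single libraries, and 3 counts, the floor, were 0.179 to 0.309 CPM.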

Additional observations from a re-analysis of the deposited data

How the results depend on the processing

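The members' median was positive under each alternative it was computed for, which leaves out the fit scaled on the members themselves, and the number of genes past the 1.5-fold limit did not. Of 84 members, 21 were called higher. The count was 40 under upper-quartile scaling, 75 under library size alone and 71 under library size alone without mitochondrially encoded genes, an alternative chosen after seeing the data. It was 60 at any fold, 1 under the stricter limits of an adjusted p of 0.01 and 2-fold, and 3 over members with under 10% shared words. Leaving out each mouse in turn gave 5 to 36 calls, 1 call lower throughout, and a median log2 fold change of 0.37 to 0.55. Rpl3l was the 1 member called lower, and 0 were called lower with a mean of at least 50 counts, since Rpl3l was not tested then, or over core genes only. The median was 0.88 under library size alone and 0.79 under library size alone without mitochondrially encoded genes. Under these scalings the log2 ratio of the summed CPM was 0.87 and 0.79 in place of 0.48. With each mouse left out it ran from 0.35 to 0.55. The log2 ratio of small to large subunit was 0.077 without the 5 members with most counts.

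No source used here says that a replicate number shared by the groups marks a litter or a day, and the groups held different mice. The deviations of same-numbered mice had correlations of −0.02, 0.17 and 0.09, and those of differently numbered mice ran from −0.18 to 0.12. So few values can neither show nor exclude a pairing. With a replicate block 21 members were called higher and 1 lower, with a median of 0.49, and Rpl13a lost its call.

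RLE scaling and DESeq2 gave 17 calls each, all among the 21, without Rpl13a, Rpl37, Rplp1 and Rps7. Rpl24, Rpl36al, Rpl10l and Rpl39l had at most 5 counts in a mouse, too few to show a difference, and whether depth or their annotation sets these counts was not tested. With 3 mice a group, outliers were not tested.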

Other observations

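Rps4l, a close relative of Rps4x, is a transcribed processed pseudogene in the annotation and so was not among the 92 genes. Its counts were 182, 252 and 199 in controls against 326, 434 and 444 at day 21 (log2 0.35 ± 0.13), while Rps4x was called higher (log2 0.63 ± 0.15).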
